A study of Homo sapiens with 4 samples.

Results

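Translation factors are the proteins that load ribosomes onto mRNA, move them along it and release them at its end. Their transcripts were compared between lipid-loaded Hep G2 cells given a mimic of a tRNA fragment and cells given a negative control. The set was a list of 52 human genes for initiation, elongation and termination factors and poly(A)-binding or rescue proteins. Each was found by its Ensembl gene ID among the 62655 genes of the count table. Of the 52, 51 had enough reads to be tested, among 14464 genes tested in all. Hep G2 is an established human hepatocellular cell line, used here as the only model of a hepatocyte.

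Both groups were treated alike up to transfection. Cells were plated at 150000 per ml, moved after 24 h to a medium rich in oleic acid, which fills them with lipid, and transfected 24 h after that. The mimic group received an oligonucleotide copy of LysTTT-5'tRF, the 5′ piece of the tRNA that carries lysine and has the anticodon TTT, and the control group received a negative control oligonucleotide. RNA was taken 24 h after transfection, and 2 poly(A)-selected libraries were sequenced per group. Gene reads numbered 15430539 and 18961222 for the mimic (libraries 1 and 2, in this order throughout), and 16793484 and 15970530 for the control (libraries 1 and 2). The labels do not say whether the libraries came from separate cultures, so the spread that the p-values rest on could be technical. The 2 mimic columns carry a number that the sample labels do not explain, and the direction of every difference rests on reading them as the mimic.

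Initiation begins when eIF2 brings the initiator tRNA to the small ribosomal subunit, which eIF3 and the cap-binding eIF4 proteins place on the mRNA. eEF1A then delivers each aminoacyl-tRNA and eEF2 moves the ribosome by a codon, until eRF1 reads a stop codon together with eRF3. Many factor mRNAs start with a pyrimidine tract through which the mTOR pathway controls their own translation, and 5′ fragments of some other tRNAs have been reported to interfere with cap-dependent initiation.

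Hepatocyte identity was visible in all 4 libraries. The 10 hepatocyte markers summed to between 47862 and 50100 counts per 1000000 gene reads (CPM), without scaling of the library size. They were not all level between groups: ALB, albumin, rose by 0.23 on the log2 scale (edgeR quasi-likelihood, Benjamini-Hochberg adjusted p = 0.0109). TTR (0.26), AFP (0.13) and FGB (0.11) had an unadjusted p under 0.05 without passing, with both mimic libraries above both controls, and the other 6 markers had an unadjusted p above 0.05. Markers of stellate cells or fibroblasts (5 genes, 2 past the filter) summed to 17.4 to 22.7 CPM, of endothelial cells (5 genes, 3 past it) to 9.39 to 11.4 CPM, of adipocytes (4 genes, 1 past it) to 5.18 to 9.27 CPM, and of leukocytes (5 genes, 0 past it) to 0.0626 to 0.518 CPM. Of these lists COL1A2, DCN, LUM, PTPRC, MARCO, TYROBP, KDR, EMCN, ADIPOQ and LEP had no read in any library. Those past the filter had mean levels of 17.0 CPM (PDGFRB), 8.10 (PECAM1), 6.42 (CIDEC), 3.43 (COL1A1), 1.25 (CDH5) and 0.73 (VWF), and none passed the test between groups. Reads that aligned to several places made up 10.4% of the total in control library 2 and 8.30% to 8.47% in the other libraries. Apart from the marker sums, CPM here refers to library sizes scaled by the trimmed mean of M values (TMM).

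One factor rose with the mimic, the termination factor ETF1, and none fell. ETF1 encodes eRF1, which recognises all stop codons and frees the finished protein. The remaining 50 tested factors did not pass the test, and 42 of the 51 had a log2 fold change within 0.1 of 0. A gene passed at an adjusted p under 0.05 in the quasi-likelihood test of edgeR, adjusted by Benjamini-Hochberg over all 14464 genes. In the same test 50 of all genes passed in either direction, 0.346% of those tested, and 40 passed as higher, 0.277%. At an unadjusted p under 0.05, 6 factors were higher and 1 was lower, beside 5.06% and 4.37% of all genes. From the list of termination, recycling and rescue, these were ETF1, GSPT1 and EIF6. EIF6 was placed in that list although its product keeps the ribosomal subunits apart. The rest of the 7 were EIF4G3 and EIF4A2 of the cap-binding group, EIF3E of eIF3 and EEF1A1 of elongation, with 0 in the other 3 roles. ETF1 was also the 1 factor that passed in DESeq2 and in limma voom.

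**Figure D1:**
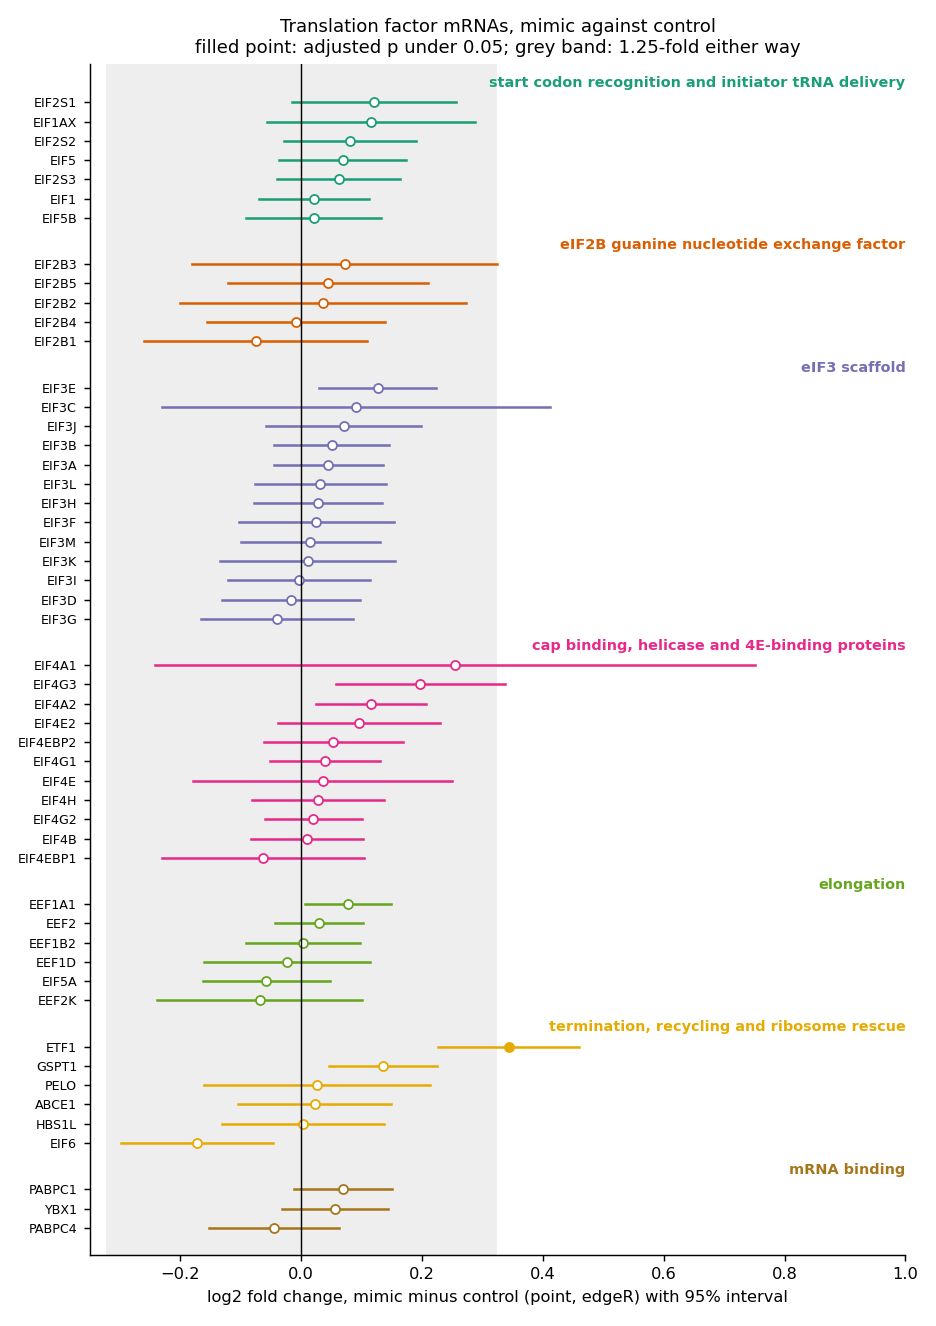
Log2 fold change, mimic minus control (x axis), of the 51 tested factors grouped by role, with 95% intervals from edgeR, a filled point for an adjusted p under 0.05 and a grey band for 1.25-fold either way. ETF1 carries the only filled point, and the intervals of EIF2B3, EIF3C, EIF4A1, EIF4G3 and ETF1 reach past the band.

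Most of the differences had narrow 95% intervals, which rest on a spread between libraries that could be technical. For 46 of the 51 factors (90.2%) the 95% interval of the difference lay within 1.25-fold in either direction, against 6262 of all genes tested (43.3%). The factors are abundant, with 33 of 51 at a mean of 100 CPM or more. The 5 whose interval reached beyond that bound were ETF1 itself, EIF4G3, the eIF2B subunit EIF2B3, and EIF3C and EIF4A1, whose counts are limited as described below. Together the 51 factors took 1.95% and 1.94% of gene reads in the mimic libraries 1 and 2, and 1.92% and 1.89% in the controls 1 and 2.

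Termination and ribosome rescue held the difference that passed. ETF1 (ENSG00000120705) lies on the minus strand of chromosome 5 from 138506095 to 138543300 (GRCh38), is protein-coding, and shares no exon sequence with another gene of the GENCODE 29 annotation. Its expression was 332 and 314 CPM with the mimic, and 272 and 237 CPM in the control, in libraries 1 and 2 of each. Both mimic libraries lay above both control libraries, and control library 2 was the lowest of the 4. As mean ± SD of 2 libraries, this was 323 ± 12.3 CPM for the mimic and 254 ± 24.7 CPM for the control, or 1.27 times as much. On the log2 scale it rose by 0.34 (SE 0.06, 95% interval 0.23 to 0.46; edgeR quasi-likelihood test, Benjamini-Hochberg adjusted p = 0.00465). In bulk RNA, more cells with the transcript and more of it per cell cannot be told apart. The part that the rise of the hepatocyte marker ALB, given above, has in this result was not tested. ETF1 pseudogenes (3 entries) held 0.24% as many reads as ETF1. Without control library 2 the log2 fold change was 0.25 and the gene still passed (edgeR quasi-likelihood test, Benjamini-Hochberg adjusted p = 0.0103).

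GSPT1 encodes eRF3a, the GTPase that works with eRF1 at the stop codon, and lies on the minus strand of chromosome 16 from 11868128 to 11916082. It was measured at 668 and 677 CPM with the mimic, against 631 and 593 CPM in the control. The mimic libraries were again the higher ones, by a smaller margin than for ETF1. The log2 fold change was 0.14 with a 95% interval from 0.05 to 0.22, and it did not pass the test (edgeR quasi-likelihood test, Benjamini-Hochberg adjusted p = 0.256). Without control library 1 it was 0.18 and passed (edgeR, Benjamini-Hochberg adjusted p = 0.0154), and with the column number as a replicate block it was 0.14 and passed (edgeR, Benjamini-Hochberg adjusted p = 0.0171), although nothing in the labels pairs the columns.

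EIF6 encodes eIF6, which binds the large ribosomal subunit and keeps the subunits apart, and lies on the minus strand of chromosome 20 from 35278911 to 35284985. It had the lowest log2 fold change of the set. Its values were 103 and 108 CPM with the mimic, against 115 and 123 CPM in the control, so that both mimic libraries lay below both controls. The log2 fold change of -0.17, with a 95% interval from -0.30 to -0.05, did not pass (edgeR quasi-likelihood test, Benjamini-Hochberg adjusted p = 0.329). Another gene covers 17.4% of its exon sequence on the same strand, which limits how surely the reads can be assigned. The 3 other factors of this role had log2 fold changes close to 0. These were 0.02 for ABCE1, the ATPase that splits ribosomes after termination, 0.03 for PELO and 0.00 for HBS1L, partners that rescue stalled ribosomes.

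**Figure D2:**
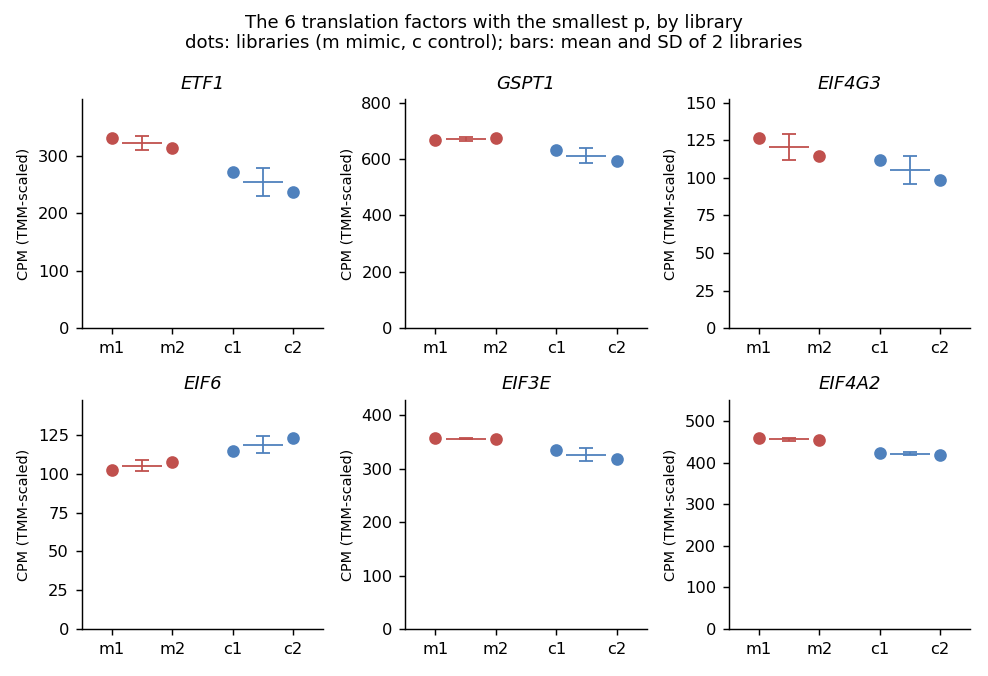
Expression in CPM of scaled library size (y axis, from 0) of the 6 factors with the smallest p in each library (m1 and m2 mimic, c1 and c2 control; x axis), with the mean and SD of 2 libraries beside the dots. In all 6 the groups do not overlap, which the choice by smallest p favours. Of all genes, 19.8% have both mimic libraries higher and 19.3% both lower. ETF1 is at 314 to 332 CPM with the mimic against 237 to 272 CPM in the control, and only EIF6 is lower with the mimic.

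Among the 11 cap-binding, helicase and 4E-binding genes 0 passed, 10 had a log2 fold change above 0, and the median was 0.04. EIF4G3 encodes an eIF4G scaffold that joins the cap-binding protein to the helicase, and lies on the minus strand of chromosome 1 from 20806292 to 21176888. It stood at 127 and 115 CPM with the mimic, against 112 and 98.5 CPM in the control. Mimic library 2 was only slightly above control library 1, and the extremes were mimic library 1 and control library 2. The difference of 0.20 on the log2 scale (95% interval 0.06 to 0.34) did not pass with all libraries (edgeR quasi-likelihood test, Benjamini-Hochberg adjusted p = 0.310). It was 0.29 and passed without control library 1 (edgeR, Benjamini-Hochberg adjusted p = 0.0046), and it was 0.11 without control library 2. With the replicate block it was 0.20 and passed (edgeR, Benjamini-Hochberg adjusted p = 0.0222).

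EIF4A2, one of the paralogous eIF4A helicases that unwind the mRNA leader, was at 458 and 454 CPM with the mimic, against 423 and 418 CPM in the control. The libraries agreed closely within each group and the groups did not overlap. Its log2 fold change of 0.12 did not pass (edgeR quasi-likelihood test, Benjamini-Hochberg adjusted p = 0.385), and 10.5% of its exon sequence overlaps other genes on the same strand. EIF4G2 encodes a scaffold that lacks the cap-binding protein's site, and was at 1134 and 1119 CPM with the mimic, against 1124 and 1098 CPM in the control. These libraries overlapped, with a log2 fold change of 0.02, and from 0.0047 to 0.0383 with single libraries left out. For the other genes of the role the log2 fold changes were 0.04 for the cap-binding protein EIF4E, 0.10 for its homologue EIF4E2, 0.04 for the scaffold EIF4G1, 0.01 and 0.03 for the helicase cofactors EIF4B and EIF4H, and -0.06 and 0.05 for EIF4EBP1 and EIF4EBP2, repressors that bind eIF4E. Antisense genes lie opposite 24.2% of EIF4E2 exon sequence.

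The 7 genes of start codon recognition and initiator tRNA delivery all had log2 fold changes above 0, with a median of 0.07, and 0 passed the test. EIF2S1, the alpha subunit of eIF2 whose phosphorylation slows initiation under stress, was at 81.8 and 79.4 CPM with the mimic, against 73.8 and 74.3 CPM in the control. The groups did not overlap, and the log2 fold change was 0.12 (95% interval -0.01 to 0.26). The other eIF2 subunits stood at log2 fold changes of 0.08 (EIF2S2) and 0.06 (EIF2S3), the start codon scanning factors EIF1AX and EIF1 at 0.12 and 0.02, the GTPase activator EIF5 at 0.07 and the subunit-joining GTPase EIF5B at 0.02. EIF1 had 501 and 493 CPM with the mimic, against 499 and 480 CPM in the control. The libraries of EIF1 overlapped, and its log2 fold change was -0.0064 without control library 2. In 5 of the 7 genes both mimic libraries were above both controls, beside 19.8% of all genes tested, and in the other 2 (EIF1 and EIF5B) they overlapped.

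eIF2B recharges eIF2 with GTP and is inhibited by phosphorylated eIF2. Of its 5 subunit genes 0 passed, 3 were above 0, and the median log2 fold change was 0.04. The smallest p was that of EIF2B1, at 33.3 and 36.6 CPM with the mimic, against 37.8 and 36.1 CPM in the control. Mimic library 1 was the lowest of the 4 and the groups overlapped, with a log2 fold change of -0.08 (95% interval -0.26 to 0.11). It ranged from -0.15 without mimic library 2 to -0.02 without mimic library 1. EIF2B4 had 73.4 and 66.3 CPM with the mimic against 69.5 and 70.7 CPM in the control. Both controls lay between the mimic libraries, and the sign of its log2 fold change of -0.01 turned when mimic library 2 (0.0653) or control library 2 (0.005) was left out. EIF2B2, EIF2B3 and EIF2B5 stood at 0.04, 0.07 and 0.04 on the log2 scale. Antisense genes lie opposite 23.6% of EIF2B2 exon sequence.

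eIF3 is the largest initiation factor and scaffolds the small subunit. Of its 13 subunit genes 0 passed, 10 lay above 0, and the median log2 fold change was 0.03. EIF3E, a subunit of its core, had 357 and 356 CPM with the mimic, against 335 and 318 CPM in the control. The mimic libraries were nearly equal and above both controls, but the log2 fold change of 0.13 (95% interval 0.03 to 0.22) did not pass (edgeR quasi-likelihood test, Benjamini-Hochberg adjusted p = 0.368). EIF3A, the largest scaffold subunit, was at 602 and 574 CPM with the mimic, against 580 and 559 CPM in the control. Here the groups overlapped, since mimic library 2 lay below control library 1. The log2 fold change of EIF3A was 0.05, with 0.0087 without mimic library 1 and 0.0789 without mimic library 2. The log2 fold changes of the other subunits ran from -0.04 (EIF3G) to 0.09 (EIF3C). The spread and the order of subunit levels depended on the length used for scaling. Per kb of transcript they ran from 27.6 CPM for EIF3M to 221 for EIF3E among the 12 other than EIF3C. Per kb of all annotated exon sequence EIF3M was at 18.8 CPM and EIF3E at 56.9. By that length EIF3F was the lowest of the 12 and EIF3I the highest, at 82.1. EIF3C lay below the other subunits with either length, at 4.02 per kb of transcript and 1.81 per kb of exon sequence. EIF3C has a near-identical copy, EIF3CL, which received 1 and 2 reads with the mimic and 4 and 0 in the control. Reads that aligned to several places were not counted to a gene, and part of the reads of EIF3C may be missing from its count.

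Of the 7 elongation genes 6 were tested, 0 passed, and 3 lay on each side of 0, with a median log2 fold change of -0.01. EEF1A1, which delivers aminoacyl-tRNA, was at 4208 and 4151 CPM with the mimic, against 4028 and 3894 CPM in the control. Both mimic libraries were higher than both controls, with a log2 fold change of 0.08 (95% interval 0.01 to 0.15) that did not pass (edgeR quasi-likelihood test, Benjamini-Hochberg adjusted p = 0.486). EEF1A1 pseudogenes (49 entries) held 1.05% as many reads as EEF1A1. EEF2, the translocase, was at 3360 and 3492 CPM with the mimic, against 3349 and 3362 CPM in the control. Its groups overlapped, and the log2 fold change was 0.03 (95% interval -0.04 to 0.10). Which of them is the more abundant mRNA depended on the length used, with 1767 and 1072 CPM per kb of transcript for EEF1A1 and EEF2 but 684 and 842 CPM per kb of all annotated exon sequence.

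The eEF1 exchange subunits EEF1B2 and EEF1D stood at log2 fold changes of 0.00 and -0.02, the eEF2 kinase EEF2K at -0.07 and EIF5A, which helps the ribosome through difficult peptide bonds, at -0.06. Antisense genes lie opposite 34.0% of EEF1D exon sequence, and whether the counting used strand is not given in the sources used here. EEF1G, the gamma subunit of eEF1, had 0 and 0 reads with the mimic and 1 and 0 in the control and could not be tested. In the GENCODE 29 annotation 99.9% of its exon sequence is shared with another gene on the same strand, ENSG00000255508. That gene had 5 and 2 reads with the mimic and 0 and 0 in the control. Reads that fall in several genes were set aside as ambiguous by the counting, 6.29% to 6.36% of each library, and EEF1G expression cannot be read from this table.

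EIF4A1, the paralogue of EIF4A2, had a like limit. It received 132 and 91 reads with the mimic and 99 and 82 in the control, or 8.62, 4.84, 5.89 and 5.09 CPM in that order. The libraries overlapped, with mimic library 1 the highest and mimic library 2 the lowest, and the log2 fold change was 0.25 (95% interval -0.24 to 0.75). Other annotated genes cover 48.6% of its exon sequence on the same strand, among them the readthrough gene SENP3-EIF4A1 with 6, 13, 8 and 13 reads. The 13 entries named as EIF4A1 pseudogenes had 41, 66, 46 and 48 reads, together 49.8% of the EIF4A1 count. EIF3L shares 41.1% of its exon sequence in the same way. Leaving out EIF4A1 and EIF3C, an alternative chosen after seeing the data, left 49 factors with a median log2 fold change of 0.03, 38 of them above 0.

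Of the 3 mRNA-binding genes 0 passed. PABPC1, the poly(A)-binding protein that links the tail to the cap complex, was at 1333 and 1401 CPM with the mimic, against 1305 and 1300 CPM in the control. The controls were nearly equal and below both mimic libraries, with a log2 fold change of 0.07 (95% interval -0.01 to 0.15). It was 0.03 without mimic library 2 and 0.10 without mimic library 1. YBX1, a protein that packages mRNA, stood at 560 and 555 CPM with the mimic, against 540 and 533 CPM in the control, a log2 fold change of 0.06 without overlap. PABPC4, a second poly(A)-binding protein, was the other way round at -0.05. It was also without overlap, but library 2 of the mimic lay barely below library 2 of the control.

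As a list, more of the factors lay on the mimic side of 0 than of all genes, by small amounts. Of the 51, 40 (78.4%) had a log2 fold change above 0, against 50.4% of all genes tested, and the median was 0.03 against 0.00. With upper-quartile scaling 36 were above 0, and with library totals 35. Both scalings also moved the median of all genes, to -0.0104 and -0.0183. The median of the factors stood 0.0302 and 0.0303 above it, beside 0.0303 with TMM scaling. Scaling moves every gene by nearly the same amount, so this gap is almost fixed across scalings and does not test the shift. With a filter at a mean of 10 CPM the gap was 0.0230, with 37 of 50 factors above 0. With single libraries left out it ran from 0.0108 to 0.0599. The middle of the list was narrow, with quartiles at 0.01 and 0.07 and a range from -0.17 to 0.34. In 17 factors both mimic libraries lay above both controls, beside 19.8% of all genes, and in 2 both lay below, beside 19.3%. The libraries overlapped in the other 32. The count of 17 is a larger share of the list than that background and the count of 2 a smaller one, and neither is a test. The median level was 142 CPM for the factors and 18.8 CPM for all genes, so the background is not matched for abundance.

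The shift was not even across libraries. The median deviation of the factors from their own mean over the 4 libraries was 0.04 and 0.01 on the log2 scale for mimic libraries 1 and 2, and -0.01 and -0.03 for the controls 1 and 2. Mimic library 2 and control library 1 were thus close together. Control library 2 was the lowest of the 4 in 28 factors (54.9%), against 29.01% of all genes, and mimic library 1 was the highest in 27. Without mimic library 1, 30 of 51 factors were above 0 and the median was 0.0087. Without mimic library 2 there were 42 and the median was 0.0542, and without control library 1 there were 38 and it was 0.0516. Without control library 2 there were 35 and the median was 0.0338, close to that with all libraries. Control library 2 also had the largest share of reads at several places and the lowest sum of the 10 hepatocyte markers, 47862 CPM against 49435 to 50100 CPM in the other libraries, and 7 of these 10 markers had a log2 fold change above 0. The part these have in the result was not tested.

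**Figure D3:**
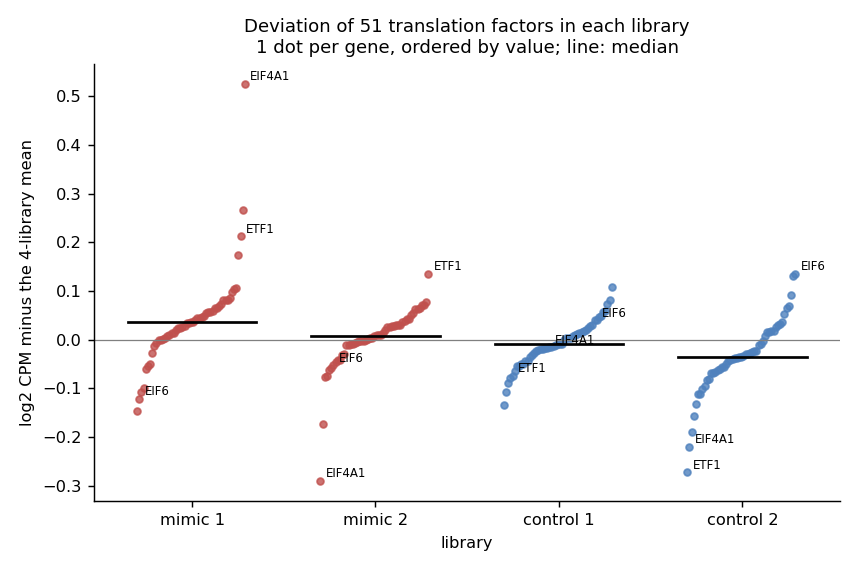
Deviation of each of the 51 factors from its mean over the 4 libraries (y axis, log2 CPM) in each library (x axis), 1 dot per gene ordered by value, with the median as a line. The medians step from 0.04 in mimic library 1 through 0.01 and -0.01 to -0.03 in control library 2, and ETF1 is the highest factor in mimic library 2 and the lowest in control library 2.

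Regulators and partners of the factors outside the list were read in the same test. Of 78 such genes 73 passed the filter on low counts and 0 passed the test, beside 0.346% of all genes tested. At that share a list of this size may well hold 0. At an unadjusted p under 0.05, 3 were higher and 0 were lower, beside 5.06% and 4.37% of all genes. Their median log2 fold change was 0.01, with 40 of 73 above 0. In the list of other initiation factors and helicases (21 tested) EIF5A2, a paralogue of EIF5A, had the smallest p. It was at 15.9 and 14.7 CPM with the mimic, against 11.95 and 10.6 CPM in the control, without overlap, and its log2 fold change of 0.43 did not pass (edgeR quasi-likelihood test, Benjamini-Hochberg adjusted p = 0.256). Among 13 kinases and phosphatases it was PPP1R15B, the constitutive subunit of the phosphatase that reverses eIF2 phosphorylation, at 102 and 96.1 CPM with the mimic, against 85.7 and 79.8 CPM in the control. Those groups did not overlap either, with a log2 fold change of 0.25 (edgeR quasi-likelihood test, Benjamini-Hochberg adjusted p = 0.105). The smallest p in the remaining lists belonged to METTL13, a methyltransferase of eEF1A (-0.16, 14 tested), the selenocysteine elongation factor EEFSEC (-0.25, 15 tested) and the mitochondrial release factor gene MTRF1 (0.22, 10 tested), and none passed.

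Sequence features that the choice of genes did not use were also read for the factors. The first was the 5′ terminal pyrimidine tract, a C at the annotated start followed by at least 4 bases that are each C or T, on the gene's own strand. RefSeq promoter sequences on GRCh38.p14 were at hand for 42 of the 52 factors, and 10 of these (23.8%) had the tract at an annotated start, against 1404 of 27305 genes (5.14%). The stretches below show it for 5 factors, from both elongation and initiation, and its lack in the termination pair. Each gives 10 bases before the start and 20 from the start on, 5′ to 3′, with the tract in capitals.
EEF1A1, chr6:73521013-73521042, minus strand: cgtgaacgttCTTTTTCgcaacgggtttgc
EEF2, chr19:3985444-3985473, minus strand: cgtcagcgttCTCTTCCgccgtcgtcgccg
EEF1B2, chr2:206159885-206159914, plus strand: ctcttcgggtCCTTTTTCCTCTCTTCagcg
EIF4A2, chr3:186783567-186783596, plus strand: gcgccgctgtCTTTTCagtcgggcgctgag
EIF4B, chr12:53006446-53006475, plus strand: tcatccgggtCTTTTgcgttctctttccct
ETF1, chr5:138543217-138543246, minus strand: aggaagtgatgtcacaggccccatgtgagc
GSPT1, chr16:11915937-11915966, minus strand: gaggagatccgctcacacacacgaggagga

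The other 5 factors with the tract were EIF2S3, EIF3D, EIF3F, EIF3K and EIF3M. ETF1, GSPT1 and EEF1B2 each have 2 listed starts, and for EEF1B2 the start with the tract is shown. Neither listed start of ETF1 or GSPT1 has the tract, and the one printed lies within the gene as annotated in GENCODE 29. The 10 factors with the tract had a median log2 fold change of 0.02, from -0.02 to 0.12, with 9 above 0 and 0 passing the test. The other 31 tested factors with a RefSeq start, which leaves out EEF1G, had a median of 0.04, with 25 above 0 and 1 passing, which was ETF1. A match describes letters at an annotated start, and these poly(A) libraries measured mRNA level, not its translation.

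The second feature was the lysine codon AAA, which the tRNA with anticodon TTT reads. In the coding sequences of 50 tested factors, AAA made up a median of 2.80% of codons, from 0 to 9.67%, against a median of 2.24% over 11922 tested genes. ETF1 had 23 AAA codons among 437 (5.26%) and GSPT1 had 27 among 499 (5.41%). EIF5B had the highest share, with 118 among 1220, and EIF3J was next at 8.91%, with log2 fold changes of 0.02 and 0.07. EIF6, with the lowest log2 fold change, had 0 AAA codons and 4 AAG codons among 245. Across these 50 genes the log2 fold change and the AAA share had a Spearman's rho of 0.38 (Pearson's r of 0.33), against 0.16 (0.09) over all genes with a coding sequence. The genes share the same 4 libraries and the AAA share follows base composition, with a rho of -0.86 between AAA share and GC content of the coding sequence in the factors. GC content itself had a rho of -0.46 with the log2 fold change in the factors and -0.16 over all genes. The 35 factors above the median AAA share of all genes had a median log2 fold change of 0.05 with 31 above 0, and the other 15 had 0.01 with 8 above 0. Over all genes the same split gave medians of 0.02 and -0.02, with 3471 of 5961 and 2622 of 5961 above 0. These values are descriptions across genes, which are not independent replicates.

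**Figure D4:**
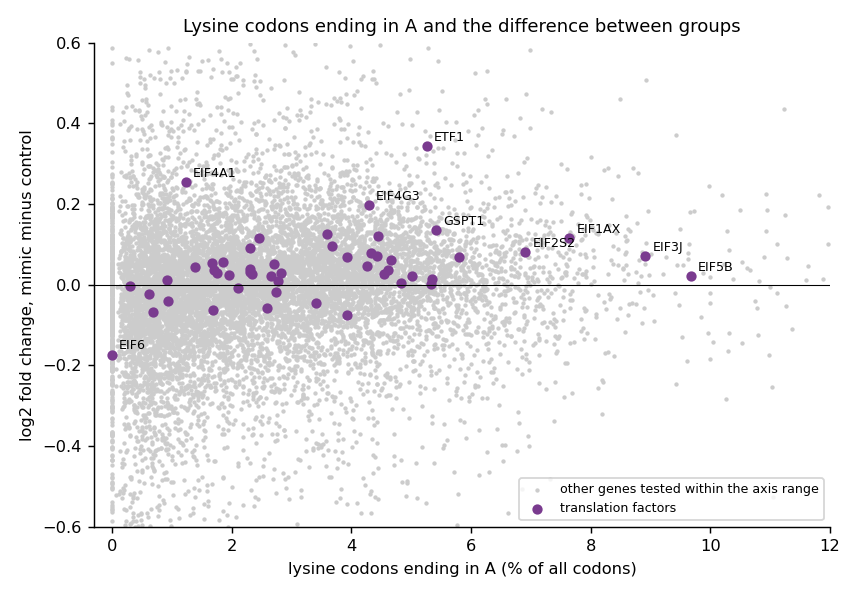
Log2 fold change, mimic minus control (y axis), against the percent of codons that are AAA, the lysine codon ending in A (x axis), for 50 factors (purple) and other tested genes (grey) within the axis range. EIF6 sits at 0% with the lowest value and ETF1 and GSPT1 lie near 5%. The factors with the highest AAA share, EIF5B and EIF3J, have log2 fold changes of 0.02 and 0.07.

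How firmly each of the leading factors stood was checked by changing the scaling, the filter, the test and the libraries. ETF1 passed in 12 of 13 alternatives with log2 fold changes from 0.25 to 0.45, and failed when no filter on low counts was applied (edgeR quasi-likelihood test, Benjamini-Hochberg adjusted p = 0.754), a setting in which 0 of all genes passed. GSPT1 and EIF4G3 each passed in 2 of the 13, with log2 fold changes from 0.09 to 0.18 and from 0.11 to 0.29. EIF6 passed in 0 of the 13, with values from -0.22 to -0.12. All 4 genes kept the sign of their difference in each of the 13.

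**Figure D5:**
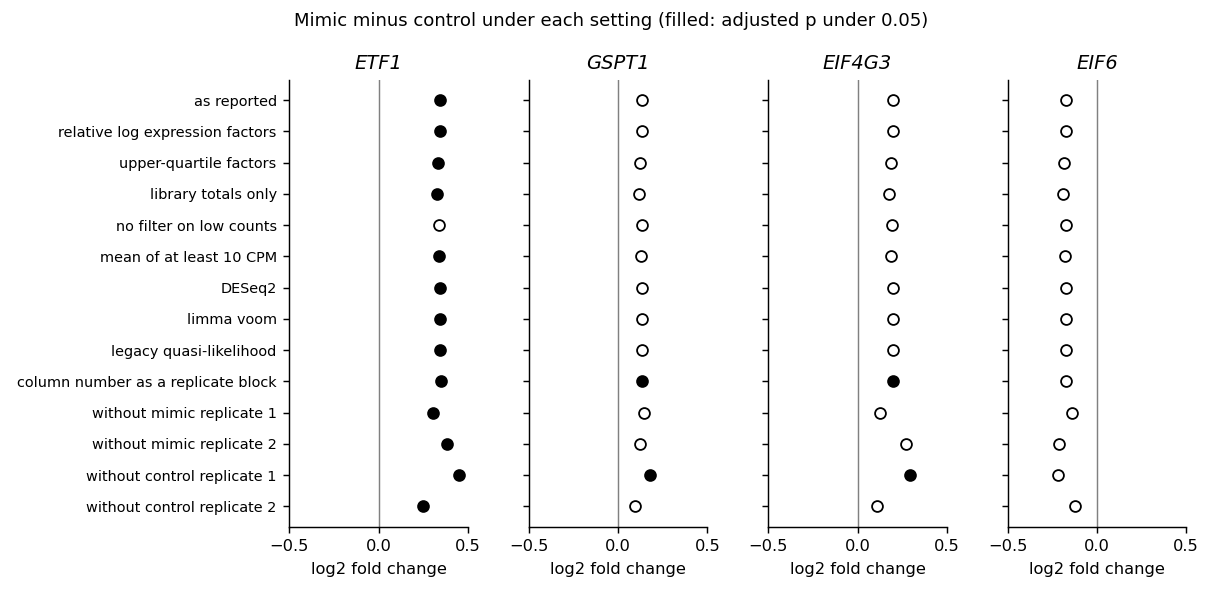
Log2 fold change, mimic minus control (x axis), of ETF1, GSPT1, EIF4G3 and EIF6 as reported and under 13 other settings (y axis), with a filled point for an adjusted p under 0.05. ETF1 lies between 0.25 and 0.45 in the other settings and is open only without a filter on low counts, while EIF6 is open throughout.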

How the data were processed

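Poly(A) RNA of 4 libraries of lipid-loaded Hep G2 cells was measured, 2 with the mimic and 2 with the negative control. The authors deposited raw counts of reads per Ensembl gene, with no normalization. The submitters' processing notes list GRCh38.p14, STAR, HTSeq, Bowtie2 and FastQC. Tool versions, gene annotation release and strand setting: not given in the sources used here. The labels' protocols name a stranded KAPA kit, 500 ng of RNA and a RIN above 9.5. The 5 summary entries, 23.1% to 24.1% of each library, were left out of library sizes and tests.

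Counts were fitted with edgeR 4.0.16 in R 4.3.3: filterByExpr (minimum count 10, minimum total 15), TMM scaling, and the quasi-likelihood F test (legacy = FALSE) with Benjamini-Hochberg adjustment over 14464 genes at 0.05. Libraries are numbered by their columns, although the controls are samples 3 and 4 in the titles. Alternatives used DESeq2 1.42.0, limma 3.58.1, other scalings and filters, a column-number block, and each library left out. The fit was tested on simulated data. Exon overlaps, lengths and codons came from GENCODE 29 (GRCh38), start sites from RefSeq.

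The factors and gene lists were chosen with earlier results of these data known. Values per library are given for each factor that passed, the 6 with the smallest p, the smallest p and most abundant of each role, and the extremes of log2 fold change; values of EEF2, YBX1, EEF1G and EIF4A1 were added after they were seen.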

Additional observations from a re-analysis of the deposited data

How the results depend on the processing

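Most results kept their direction and side of the threshold, which for every named factor but ETF1 was the side of not passing. Of 182 alternative values for 14 named factors, 174 did, 4 newly passed, 1 no longer passed and 3 changed sign. The number of factors that passed was 1, and it was 0 with no filter on low counts, 3 with the column number as a replicate block (EIF4G3, ETF1 and GSPT1), and 1 to 3 with single libraries left out, the 3 being without control library 1. All genes that passed numbered 50, and 0 with no filter (1514 at an unadjusted p under 0.05), 30 with DESeq2, 306 with the block, and 20 to 424 with libraries left out: 20 and 120 on leaving out mimic library 1 or 2, and 424 and 22 on leaving out control library 1 or 2. Nothing in the labels pairs the columns, since the sample titles share no number. The within-group differences of columns 1 and 2 had a correlation of 0.0234 across genes. That value includes the counting noise of every gene and cannot decide whether the libraries were paired. With the block the log2 fold change was 0.14 for GSPT1 and 0.20 for EIF4G3 (edgeR, Benjamini-Hochberg adjusted p = 0.0171 and 0.0222). The median log2 fold change of the factors, 0.0314, was 0.012 with library totals only, where that of all genes was -0.02, and 0.0087 to 0.0542 with libraries left out. The factors above 0 numbered 35 with library totals, 36 with upper-quartile factors and 30 to 42 with libraries left out. EIF1 changed sign without control library 2 (-0.0064; range -0.0064 to 0.0516), and EIF2B4 without mimic library 2 (0.0653) or control library 2 (0.005; range -0.0817 to 0.0653). The cause was not tested. With 1 library left in a group, its spread is assumed to equal that of the other. DESeq2 gave 45 of the 51 factors an adjusted p. EIF2B1 had none there and is counted among the 174 by its direction alone.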
